A study of Mus musculus with 46 samples.

Results

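The 10 genes described here encode regulators of the mammalian cell cycle: the activator E2Fs E2f1, E2f2 and E2f3, the atypical repressor E2Fs E2f7 and E2f8, the dimer partner Tfdp1, the pocket proteins Rb1 and Rbl1, and the late-acting transcription factors Mybl2 and Foxm1. They were chosen as a named list and looked up by symbol in the deposited count table, which holds 20999 genes. All 10 were found, and all 10 were among the 12230 genes that passed the filter on low counts. E2f7 had only 8 counts in each adult library and passed through its higher counts in the sorted groups.

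The samples were microglia, the macrophages that reside in brain tissue, of male C57BL/6 mice, sorted on CD11b and CD45. RNA was sequenced in 5 groups of 2 libraries that the labels call independent biological replicates. Adult microglia came from untreated wild-type mice at 90 days and are labelled Ki67-negative, although they carried no reporter. Microglia of postnatal day 8 (PND8) came from untreated mice with the Ki67-rfp reporter, and were sorted as Ki67-negative or Ki67-positive at 8 days of age. Ki67 is a nuclear protein of cycling cells. Repopulating microglia came from Ki67-rfp mice at 75 days and were sorted by the reporter as well. These mice had received PLX5622, an inhibitor of CSF1R that depletes microglia, for 17 days from day 55, and had then recovered for 3 days. Chromatin came from wild-type males, per the labels, and the immunoprecipitated cells had been sorted after fixation with a Ki67 antibody, so that the Ki67 gate of the chromatin differed from that of the RNA. H3K27ac, which marks active regulatory elements, was profiled in 6 groups of 2: untreated adult cells at 60 and 65 days, Ki67-negative and Ki67-positive cells of PND8, Ki67-negative and Ki67-positive cells at 90 days after 4 weeks of cuprizone (a diet that removes myelin), and Ki67-positive repopulating cells at 90 days, with PLX5622 from day 70. H3K4me3, a mark of promoters, was profiled in 2 libraries of untreated adult cells at 75 days. Rpb2, a subunit of RNA polymerase II, was profiled in 2 libraries of untreated adult cells at 60 and 65 days and 1 of Ki67-positive PND8 cells. ATAC-seq, which measures open chromatin, had 1 library each of untreated adult cells at 80 days, Ki67-positive PND8 cells and Ki67-positive repopulating cells at 75 days. The labels give no treatment for the adult chromatin, but the headers of the adult H3K27ac and Rpb2 lists name a vehicle, so these cells are untreated only as far as the labels say. The titles of both Ki67-positive ATAC-seq samples name the reporter, whereas their genotype is given as wild type. All cells were isolated on ice in the presence of butyrate, which inhibits histone deacetylases, and flavopiridol, which inhibits the kinases of transcription elongation.

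In quiescent cells, pocket proteins of the RB family hold E2F-DP dimers at promoters and keep genes of DNA replication silent. Cyclin-dependent kinases release the activator E2Fs late in G1, and E2F7 and E2F8 then repress many of the same genes as S phase proceeds. B-MYB, the product of Mybl2, joins the MuvB complex in S phase and primes the genes of mitosis, which FOXM1 drives in G2. Microglia divide rapidly in the first postnatal weeks, rarely in the healthy adult brain, and again when the niche is emptied. Transcript levels of many of these regulators, though not of all, follow the cycle. Their activity also depends on phosphorylation, which RNA does not show.

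RNA libraries held 6865903 to 10287876 counts with 13557 to 14728 genes detected, and replicates of each group differed by more than counting noise (chi-square divided by its degrees of freedom, 2.56 to 12.1). All 10 microglial markers, Csf1r and P2ry12 among them, were present in every group, with summed levels of 7006 to 9078 counts-per-million (CPM). The sort showed in Mki67 itself, the gene of the sorted protein, which was higher in Ki67-positive cells by 1.95 (SE 0.149) on the log2 scale at PND8 and by 1.34 (SE 0.147) in repopulation (edgeR adjusted p = 9.2e-06 and 2.0e-04). Markers of border macrophages summed to 599 to 857 CPM in the PND8 libraries, 63.3 to 77.1 CPM in the adult and 26.2 to 42.9 CPM in the repopulating libraries. In bulk samples, fewer cells that express a gene and less RNA of that gene per cell cannot be told apart.

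The regulators lie on 8 autosomes of the mouse genome (build mm10, equal to GRCm38 in its coordinates). In the transcripts used for counting, E2f1 (chr2:154559400-154569892), Rbl1 (chr2:157145894-157204534), E2f3 (chr13:29906575-29986063), E2f8 (chr7:48866429-48881041) and Rb1 (chr14:73195502-73325822) lie on the minus strand. E2f2 (chr4:136172274-136196056), Mybl2 (chr2:163054635-163084687), Foxm1 (chr6:128362994-128375886), E2f7 (chr10:110745439-110787384) and Tfdp1 (chr8:13338804-13378448) lie on the plus strand. Counts were taken over exons. RefSeq promoters of GRCm38.p6 (250 bases before and 50 after a start site) were available for 8 of the 10 genes, in 11 entries. They were searched on both strands for 4 E2F words (TTTCCCGC, TTTGGCGC, TTTGCCGC and TTTCGCGC) and for the shorter core TCCCGCC, which can overlap the first of them and was added after the sequences had been seen. A word or the core was present in 6 of the 8 genes, E2f2, E2f3, E2f7, Tfdp1, Rbl1 and Mybl2, the last by the core alone. Counted by entry, 8 of the 11 held one, as did 12.8% of all 32851 promoters of the same length. The 4 words alone were present in 2.26% of all these promoters. For E2f1 and E2f8, the other genes searched, the entries stood at start sites other than the counted ones, so the promoters of their counted transcripts were not searched. A match is a run of letters and not a measured binding site. The 250 bases upstream of the counted start site are shown 5′ to 3′ for 4 genes, with words and core in capitals. E2f7 (chr10:110745189-110745438, plus strand) and Mybl2 (chr2:163054385-163054634, plus strand) are shown because their H3K27ac peaks were called only in lists of Ki67-positive cells. E2f3 (chr13:29986064-29986313, minus strand) is shown because its transcript was lower than in the adult, and Rbl1 (chr2:157204535-157204784, minus strand) as an example of the word TTTCGCGC, the rarest of the 4, in 0.323% of all promoters. Both entries of Tfdp1 held that word too.
E2f7: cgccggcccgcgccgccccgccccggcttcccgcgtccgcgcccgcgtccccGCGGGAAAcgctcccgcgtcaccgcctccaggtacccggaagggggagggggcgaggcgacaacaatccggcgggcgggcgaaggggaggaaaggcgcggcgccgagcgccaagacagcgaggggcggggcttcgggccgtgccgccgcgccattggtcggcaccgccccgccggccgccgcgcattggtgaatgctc
Mybl2: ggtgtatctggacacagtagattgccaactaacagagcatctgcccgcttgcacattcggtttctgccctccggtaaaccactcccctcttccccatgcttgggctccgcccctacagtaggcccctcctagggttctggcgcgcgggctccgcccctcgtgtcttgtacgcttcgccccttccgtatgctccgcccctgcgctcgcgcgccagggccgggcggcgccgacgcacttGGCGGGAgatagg
E2f3: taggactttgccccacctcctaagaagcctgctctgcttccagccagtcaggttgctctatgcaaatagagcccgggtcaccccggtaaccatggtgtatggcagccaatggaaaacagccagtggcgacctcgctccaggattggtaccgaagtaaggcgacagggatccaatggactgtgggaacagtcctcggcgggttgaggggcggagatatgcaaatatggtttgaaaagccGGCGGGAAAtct
Rbl1: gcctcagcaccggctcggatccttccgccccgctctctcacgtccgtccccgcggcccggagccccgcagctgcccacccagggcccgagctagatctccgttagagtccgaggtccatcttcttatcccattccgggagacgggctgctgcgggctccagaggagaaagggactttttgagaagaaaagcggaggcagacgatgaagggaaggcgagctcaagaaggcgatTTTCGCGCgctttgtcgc
Counted from the start site, the first base of the match stood at −13 in Mybl2, at −12 for the core and −11 for the overlapping word in E2f3, and at −18 in Rbl1, but at −198 in E2f7. In E2f3 the letters TTTGAA, the cell cycle homology region at which MuvB complexes bind, also stood at −23, as they did somewhere in 17.9% of all promoters.

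Against adult microglia, 8 of the 10 regulators were higher in each of the 4 sorted groups, E2f3 was lower and Rb1 passed the test in none, although in repopulating Ki67-negative cells it passed under 4 alternatives. Of all tested genes, 25.1% were called higher and 24.3% lower in PND8 Ki67-positive cells, 25.4% and 21.4% in PND8 Ki67-negative, 23.9% and 21% in repopulating Ki67-positive and 21.5% and 17.6% in repopulating Ki67-negative cells. Median log2 differences over the 10 genes were 1.39, 2.56, 2.16 and 2.90 in that order, where the medians over all genes lay between −0.01 and 0.03. All 4 comparisons share the 2 adult libraries, so they are not independent. Changes ranged from a 59.3-fold higher level for E2f7 to a 1.99-fold lower level for E2f3. The E2f7 value rests on 8 counts in each adult library, and the gene passed the filter only through the sorted groups. The plot of transcript levels shows the libraries gene by gene.

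**Figure D1:**
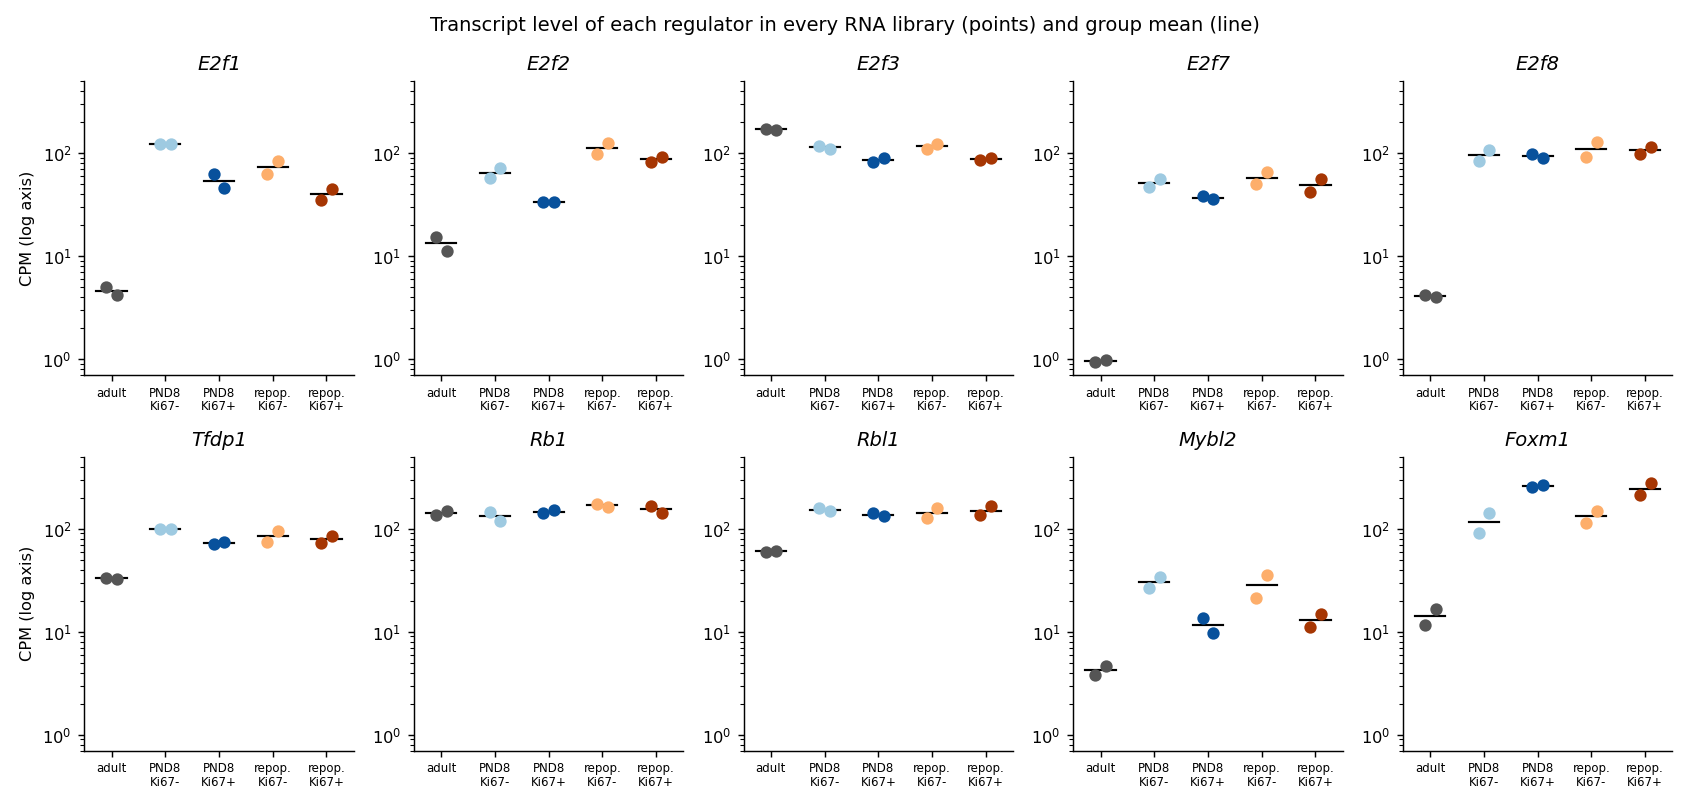
CPM on a log axis for each of the 10 regulators in the 10 RNA libraries; points are libraries, lines are means of the 2 libraries of a group, and repop. stands for repopulation. Foxm1 lies highest in the Ki67-positive groups (211 to 278 CPM), Mybl2 and E2f1 lie higher in the Ki67-negative than in the Ki67-positive cells of the same setting, and E2f3 lies highest in the adult (168 to 173 CPM).

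Among the activators, E2f1, which drives entry into S phase, had 4.97 and 4.15 CPM in the adult libraries, 122 and 123 CPM in PND8 Ki67-negative cells and 62.0 and 45.9 CPM in PND8 Ki67-positive cells. In repopulation it had 62.8 and 84.1 CPM in Ki67-negative and 35.2 and 44.9 CPM in Ki67-positive cells. Every sorted library lay far above both adult libraries, and the PND8 Ki67-negative pair lay above all others. The log2 difference from the adult was 4.74 (SE 0.220, edgeR adjusted p = 6.2e-09) in PND8 Ki67-negative cells, 3.56 in PND8 Ki67-positive, 3.99 in repopulating Ki67-negative and 3.12 in repopulating Ki67-positive cells, each with an adjusted p of 2.0e-07 or less.

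E2f2, a second activator E2F, had 15.4 and 11.2 CPM in the adult, 56.7 and 71.0 CPM in PND8 Ki67-negative, 33.4 and 33.2 CPM in PND8 Ki67-positive, 97.1 and 125 CPM in repopulating Ki67-negative and 82.7 and 92.4 CPM in repopulating Ki67-positive cells. The 5 groups did not overlap, and both repopulating groups lay above both PND8 groups. It rose by 1.32 (SE 0.183) on the log2 scale in PND8 Ki67-positive cells and by 3.05 (SE 0.176) in repopulating Ki67-negative cells (edgeR adjusted p = 5.8e-05 and 3.8e-08).

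E2f3, the third activator, went the other way. It had 173 and 168 CPM in the adult, 116 and 109.9 CPM in PND8 Ki67-negative, 81.9 and 89.0 CPM in PND8 Ki67-positive, 109.1 and 123 CPM in repopulating Ki67-negative and 85.8 and 89.1 CPM in repopulating Ki67-positive cells. The adult libraries were the highest, both Ki67-negative groups came next and overlapped each other, and both Ki67-positive groups came last and also overlapped each other. The log2 difference from the adult was −0.99 (SE 0.0921) in PND8 Ki67-positive and −0.96 (SE 0.0925) in repopulating Ki67-positive cells, and −0.59 and −0.55 in the Ki67-negative cells (edgeR adjusted p = 3.7e-04 or less).

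Of the repressors, E2f7 rose more than any other regulator in all 4 comparisons with the adult, and E2f8 came next, except in PND8 Ki67-negative cells, where E2f1 did. E2f7 had 0.925 and 0.978 CPM in the adult, 46.5 and 56.2 CPM in PND8 Ki67-negative, 38.0 and 35.6 CPM in PND8 Ki67-positive, 49.8 and 65.4 CPM in repopulating Ki67-negative and 42.1 and 55.4 CPM in repopulating Ki67-positive cells. E2f8 had 4.16 and 4.03 CPM in the adult, 83.7 and 107 CPM in PND8 Ki67-negative, 98.8 and 88.9 CPM in PND8 Ki67-positive, 90.6 and 128 CPM in repopulating Ki67-negative and 98.5 and 114 CPM in repopulating Ki67-positive cells. The 4 sorted groups overlapped one another for E2f8, whereas for E2f7 the PND8 Ki67-positive pair lay below the other 3. Log2 differences from the adult were 5.25 to 5.89 for E2f7 and 4.51 to 4.72 for E2f8 (edgeR adjusted p = 9.8e-09 or less). The size of the E2f7 change rests on 8 counts in each adult library. In all 4 comparisons its lowest value over the alternatives, 3.13 to 3.66, lay below the lowest of E2f8, 3.89 to 4.01. The first rank of E2f7 thus depended on the processing.

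Tfdp1, which encodes DP1, the partner with which the activator E2Fs bind DNA, had 33.3 and 32.6 CPM in the adult and 71.4 to 99.8 CPM in the 8 sorted libraries. The PND8 Ki67-negative pair, at 98.6 and 99.8 CPM, was the highest. Its log2 difference from the adult was between 1.15 (SE 0.125) in PND8 Ki67-positive and 1.59 (SE 0.124) in PND8 Ki67-negative cells (edgeR adjusted p = 6.4e-06 or less).

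The pocket proteins behaved differently from each other. Rb1, the retinoblastoma gene, had 136 and 149 CPM in the adult, 147 and 119 CPM in PND8 Ki67-negative, 142 and 151 CPM in PND8 Ki67-positive, 175 and 163 CPM in repopulating Ki67-negative and 168 and 143 CPM in repopulating Ki67-positive cells. The repopulating Ki67-negative pair lay above the adult and both PND8 pairs, and the other groups overlapped. Log2 differences from the adult were 0.04, −0.10, 0.13 and 0.25, with edgeR adjusted p of 0.812, 0.480, 0.378 and 0.0957 for PND8 Ki67-positive, PND8 Ki67-negative, repopulating Ki67-positive and repopulating Ki67-negative cells. The last of these, at 0.25 in each alternative, passed without a filter on low counts (edgeR adjusted p = 0.0478), with only the groups compared (0.0200) and without PND8 Ki67-negative replicate 1 (0.0373) or replicate 2 (0.0402). Rbl1, which encodes p107, a pocket protein of cycling cells, had 60.0 and 61.2 CPM in the adult and 127 to 165 CPM in the sorted libraries, where the 4 groups overlapped in part. It rose by 1.18 to 1.34 on the log2 scale (edgeR adjusted p = 4.6e-06 or less). The ratio of Rbl1 to Rb1 within a library, on the length-scaled TPM (transcripts-per-million) values, was 0.421 and 0.391 in the adult and 0.690 to 1.19 in the sorted libraries.

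Mybl2 had 3.82 and 4.64 CPM in the adult, 26.7 and 34.3 CPM in PND8 Ki67-negative, 13.7 and 9.71 CPM in PND8 Ki67-positive, 21.3 and 35.8 CPM in repopulating Ki67-negative and 11.2 and 14.8 CPM in repopulating Ki67-positive cells. The adult pair was the lowest, both Ki67-positive groups overlapped each other in the middle, and both Ki67-negative groups overlapped each other at the top. Foxm1 had 11.7 and 16.5 CPM in the adult, 91.1 and 142 CPM in PND8 Ki67-negative, 253 and 265 CPM in PND8 Ki67-positive, 115 and 148 CPM in repopulating Ki67-negative and 211 and 278 CPM in repopulating Ki67-positive cells. Here too the Ki67-negative groups overlapped each other and the Ki67-positive groups overlapped each other, but the Ki67-positive cells were on top. Against the adult, Mybl2 rose by 1.47 (SE 0.316) and Foxm1 by 4.20 (SE 0.235) on the log2 scale in PND8 Ki67-positive cells, and Mybl2 by 2.85 (SE 0.297) and Foxm1 by 3.06 (SE 0.235) in PND8 Ki67-negative cells (edgeR adjusted p = 0.00179, 1.4e-08, 5.6e-06 and 3.3e-07). The repopulating cells gave 1.61 and 4.12 when Ki67-positive and 2.74 and 3.22 when Ki67-negative.

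A required change of at least 2-fold against the adult left 4 of the 9 calls in PND8 Ki67-positive cells. The adult libraries came from mice without the reporter and carried a header code of their own, so genotype, code and age cannot be told apart from the groups; markers of monocytes and neutrophils also summed to 69.4 to 228 CPM in the adult against 7.52 to 18.5 CPM in the sorted libraries, with all 8 of 8 genes present in the adult. In the PND8 libraries border macrophage markers (599 to 857 CPM against 63.3 to 77.1 CPM in the adult, 6 of 6 genes present) and erythroid markers (21.3 to 69.6 CPM against 0.463 to 6.60 CPM, 4 of 4 present) were higher. The part of these markers in the results was not tested.

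Set on the TPM scale, which allows genes to be compared, the leading regulator changed with the group. In the adult, E2f3 (58.0 ± 1.65 TPM, SD, n = 2) and Rb1 (46.4 ± 2.91 TPM) were the most abundant and E2f7 (0.261 ± 0.00919 TPM) the least. In PND8 Ki67-negative cells E2f1 led with 66.8 ± 1.02 TPM, followed by Tfdp1 at 59.1 ± 1.48 TPM. Foxm1 led in both Ki67-positive groups, at 89.4 ± 2.53 TPM at PND8 and 80.1 ± 14.3 TPM in repopulation. In repopulating Ki67-negative cells Rb1 (52.6 ± 4.21 TPM) and Tfdp1 (49.0 ± 6.24 TPM) had the highest means, within each other's spread. The libraries of E2f8 (43.3 ± 8.89 TPM), Foxm1 (43.2 ± 6.46 TPM) and Rbl1 (42.2 ± 5.48 TPM) overlapped those of Tfdp1, so no clear leader stood out. Mybl2 stayed low in every group, between 1.73 ± 0.233 TPM in the adult and 12.3 ± 2.31 TPM in PND8 Ki67-negative cells. For E2f2, E2f3, E2f8 and Tfdp1 the TPM table names another transcript than the count table, so their place in this order also depends on the transcript chosen.

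The next question was which regulators differ between Ki67-positive and Ki67-negative microglia of the same setting. At PND8, Foxm1 rose in Ki67-positive cells while E2f1, E2f2, E2f3, Tfdp1 and Mybl2 fell: 1 of 10 higher and 5 of 10 lower, where 2.75% of all tested genes were called higher and 3.15% lower. In repopulation Foxm1 again rose and E2f1, E2f3 and Mybl2 fell, 1 of 10 higher and 3 of 10 lower, where 1.87% of all tested genes were called higher and 0.867% lower. The repressors E2f7 and E2f8 and the pocket proteins Rb1 and Rbl1 passed the test in neither setting. DESeq2 called 5 and 3 regulators, without Tfdp1 at PND8 and without Foxm1 in repopulation. Of all 12230 genes it called 706 at PND8, and its count in repopulation is not given here.

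**Figure D2:**
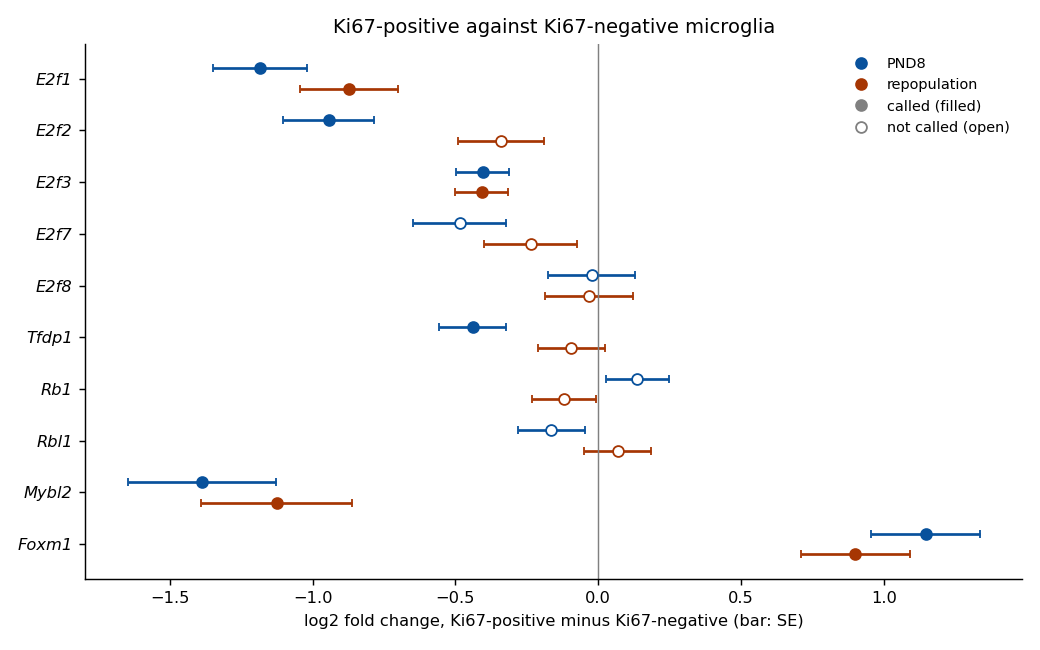
Log2 difference between Ki67-positive and Ki67-negative cells (positive minus negative) for each regulator (points) with its SE (bars), at PND8 and in repopulation; filled points passed the edgeR adjusted p of 0.05. Foxm1 lies at 1.15 and 0.90, Mybl2 at −1.39 and −1.13 and E2f1 at −1.18 and −0.87, while E2f8 lies at −0.02 and −0.03.

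E2f1 fell by 1.18 (SE 0.164, edgeR adjusted p = 7.5e-04) on the log2 scale at PND8 and by 0.87 (SE 0.172, edgeR adjusted p = 0.0132) in repopulation. The headers carry a numeric code, and within the 4 pairs with a common code PND8 gave log2 differences of −0.98 and −1.42 and repopulation −0.83 and −0.90. E2f2 fell by 0.94 (SE 0.160, edgeR adjusted p = 0.00281) at PND8, with −0.76 and −1.09 in the pairs. In repopulation it was at −0.34 (SE 0.150, edgeR adjusted p = 0.292), with −0.23 and −0.44 in the pairs, although both Ki67-positive libraries lay below both Ki67-negative ones, and it passed with the header code as a term (−0.33, edgeR adjusted p = 0.0446). E2f3 fell by 0.40 (SE 0.0924, edgeR adjusted p = 0.0195) at PND8 and by 0.41 (SE 0.0934, edgeR adjusted p = 0.0322) in repopulation, and all 4 pairs were lower, by −0.51, −0.30, −0.35 and −0.47. Without PND8 Ki67-positive replicate 1 the PND8 value of E2f3 was −0.31 (edgeR adjusted p = 0.194), and without replicate 2 its adjusted p was 0.107. In repopulation E2f1 missed the threshold without Ki67-negative replicate 2 (−0.65, edgeR adjusted p = 0.0976) or Ki67-positive replicate 1 (−0.72, edgeR adjusted p = 0.0953), and E2f3 without any of the 4 repopulating or 2 adult libraries (−0.32 to −0.50).

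E2f8, the atypical E2F with the higher level, was at −0.02 (SE 0.154) and −0.03 (SE 0.154), and its libraries overlapped in both settings. E2f7 was at −0.48 (SE 0.163, edgeR adjusted p = 0.105) at PND8, where both Ki67-positive libraries were lower, and at −0.24 (SE 0.162, edgeR adjusted p = 0.530) in repopulation, where the libraries overlapped. With the header code as a term in the fit, E2f7 passed at PND8 (−0.48, edgeR adjusted p = 0.00954). The ratio of E2f8 to E2f7 in TPM was 2.77 and 2.90 in PND8 Ki67-negative and 3.99 and 3.84 in PND8 Ki67-positive cells, and 2.78 and 2.97 against 3.57 and 3.12 in repopulation; in the adult it was 7.11 and 6.12.

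Tfdp1 fell by 0.44 (SE 0.117, edgeR adjusted p = 0.0427) at PND8 and was at −0.09 (SE 0.118, edgeR adjusted p = 0.773) in repopulation. The PND8 call did not hold when any of 7 libraries was left out, with an edgeR adjusted p of 0.238 when PND8 Ki67-positive replicate 1 was dropped and 0.234 when replicate 2 was, nor under DESeq2 (adjusted p = 0.0540). Rb1 was at 0.14 (SE 0.111) and −0.12 (SE 0.111), and Rbl1 at −0.16 (SE 0.117) and 0.07 (SE 0.118), with edgeR adjusted p between 0.487 and 0.846.

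Mybl2 and Foxm1, which act on the same late genes, moved in opposite directions. Mybl2 fell by 1.39 (SE 0.260, edgeR adjusted p = 0.00562) at PND8 and by 1.13 (SE 0.264, edgeR adjusted p = 0.0375) in repopulation. Foxm1 rose by 1.15 (SE 0.190, edgeR adjusted p = 0.00252) and by 0.90 (SE 0.191, edgeR adjusted p = 0.0214). In the 4 pairs that share a header code, Mybl2 was at −0.96, −1.80, −0.91 and −1.26 and Foxm1 at 1.47, 0.90, 0.88 and 0.91. The Mybl2 call at PND8 was lost without Ki67-positive replicate 2 (−1.13, edgeR adjusted p = 0.114), and in repopulation without any adult library or without Ki67-negative replicate 2 (−0.72, edgeR adjusted p = 0.231), Ki67-positive replicate 1 (−0.95, 0.182) or replicate 2 (−1.33, 0.109). The Foxm1 call in repopulation was lost without Ki67-negative replicate 1 (0.72, edgeR adjusted p = 0.283) or Ki67-positive replicate 2 (0.69, edgeR adjusted p = 0.268), and under DESeq2 (0.88, adjusted p = 0.0617).

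Ratios within a library do not depend on the scaling between libraries. The TPM of Mybl2 over that of Foxm1 was 0.347 and 0.285 in PND8 Ki67-negative and 0.0637 and 0.0432 in PND8 Ki67-positive cells. In repopulation it was 0.220 and 0.286 in Ki67-negative and 0.0628 and 0.0630 in Ki67-positive cells. All 4 Ki67-positive libraries thus lay below all 4 Ki67-negative ones and below the adult libraries at 0.386 and 0.333. E2f1 over Foxm1 was 2.14 and 1.38 against 0.391 and 0.276 at PND8, and 0.873 and 0.906 against 0.266 and 0.258 in repopulation, with the adult at 0.679 and 0.402. The plot of these ratios separates the Ki67-positive from the Ki67-negative libraries without overlap.

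**Figure D3:**
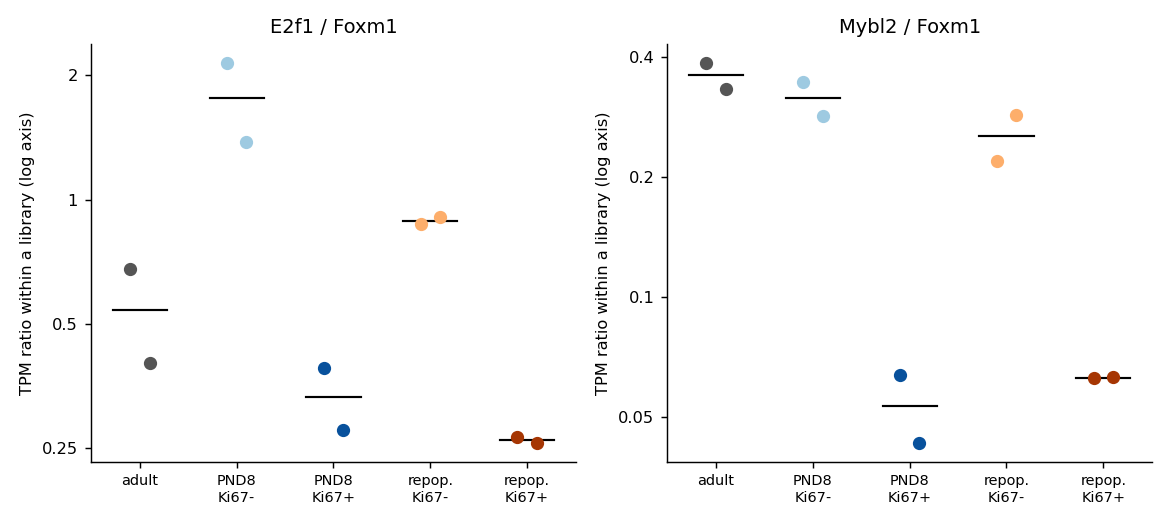
TPM ratio of E2f1 to Foxm1 (left) and of Mybl2 to Foxm1 (right) within each of the 10 RNA libraries, on log axes; points are libraries and lines are means of 2. The Mybl2 ratio lies between 0.0432 and 0.0637 in Ki67-positive cells and between 0.220 and 0.347 in sorted Ki67-negative cells.

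The difference of the Ki67 effect between the settings was tested directly. edgeR called 0 of 12230 genes (0%), with 613 at an unadjusted p under 0.05, and DESeq2 called 3. Those 613 are close to the share that this threshold gives where nothing differs. Of the 10 regulators, 1 was among them, which does not set the regulators apart. This was E2f2, whose Ki67 effect was −0.94 at PND8 and −0.34 in repopulation. The difference of 0.60 (SE 0.219) thus stood for a smaller fall in repopulation, and it was not called (edgeR adjusted p = 0.960). Markers of some other cell types differed between the Ki67 gates: endothelial and mural markers, 6 of 6 in the table, summed to 78.5 to 82.6 CPM in PND8 Ki67-negative and 47.2 to 48.2 CPM in PND8 Ki67-positive cells, and to 39.5 to 47.6 and 28.6 to 32.4 CPM in repopulation, with Rgs5 at 0 in both repopulating groups and Cldn5 in the Ki67-negative one. Neuronal markers, 9 of 9, summed to 10.4 to 12.4 against 6.83 to 6.94 CPM at PND8, with Gad1 at 0 in the Ki67-positive cells, and to 2.59 to 3.75 against 2.16 to 2.43 CPM in repopulation, with Stmn2 and Dcx at 0 in both groups and Gad1 in the Ki67-positive one. Astrocyte markers, 7 of 7 with none at 0, overlapped between the gates at PND8 (97.1 to 430 against 61.1 to 376 CPM), where they differed more between libraries of a group, and summed to 502 to 567 against 410 to 421 CPM in repopulation. Border macrophage markers, 6 of 6, were instead higher in the Ki67-positive cells, at 844 to 857 against 599 to 785 CPM at PND8 and 36.0 to 42.9 against 26.2 to 32.3 CPM in repopulation, where Lyve1 was at 0. Their part in the results was not tested.

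Known targets of the regulators followed 2 patterns in the same comparisons. Of all tested genes, 2.75% were called higher and 3.15% lower at PND8, and 1.87% and 0.867% in repopulation. Of 21 G1/S genes known as E2F targets, 16 fell and 0 rose in PND8 Ki67-positive cells, with a median log2 difference of −0.88 against −0.03 over all genes. The lowest were Cdc6 (−2.03, edgeR adjusted p = 1.7e-04), which loads the replicative helicase, and Chaf1b (−1.83, edgeR adjusted p = 9.7e-04), a histone chaperone subunit; the smallest called changes were those of Mcm3 (−0.43), a helicase subunit, and Pcna (−0.66), the polymerase clamp. In repopulation 5 of the 21 fell and 0 rose, Ung (−1.71), Chaf1b (−1.63), Cdc6 (−1.18), Ccne2 (−1.12) and Cdt1 (−0.70), with a list median of −0.48 against 0.00 over all genes. DESeq2 called 15 of the 21 at PND8, where it called 706 of all 12230 genes. It called 8 in repopulation, where its count over all genes is not given here. Of 25 G2/M genes known as targets of MYBL2-MuvB and FOXM1, 25 rose at PND8, with a median of 1.99, and 24 in repopulation, with a median of 1.87. The phosphatase gene Cdc25b was highest in both (3.63 and 2.99) and the mitotic kinase gene Cdk1 the lowest of those called (0.78 and 0.85), whereas Aurkb, an Aurora kinase, was at 0.85 with an edgeR adjusted p of 0.0566 in repopulation. That list holds Mki67, the gene of the sorted protein. Counts of called genes describe the lists; no test compared them with other genes.

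The remaining genes of the family gave no call between the Ki67 gates. Over all tested genes, 2.75% were called higher and 3.15% lower at PND8, and 1.87% and 0.867% in repopulation. With shares this low, 0 calls in a list of 11 does not set these genes apart. Of 11 further E2F, RB, DP and MuvB genes, edgeR called 0 in either setting, with 1 at an unadjusted p under 0.05 in each, and DESeq2 called 0. That gene was Tfdp2, which encodes a second DP partner of the E2Fs, and it is named after its values were seen. It had 44.4 ± 0.697 CPM (SD, n = 2) in Ki67-negative and 35.4 ± 1.82 CPM in Ki67-positive cells of PND8, and 48.1 ± 0.209 against 37.0 ± 0.565 CPM in repopulation. Its log2 differences of −0.33 (SE 0.111) and −0.38 (SE 0.112) were close in size to those of E2f3, but missed the threshold (edgeR adjusted p = 0.107 and 0.0985). E2f4, the main repressor E2F of quiescent cells, was at 0.06 (SE 0.0919) at PND8 and 0.06 (SE 0.0929) in repopulation, and Rbl2, which encodes the pocket protein p130, was at 0.21 (SE 0.106) and 0.06 (SE 0.107). Against the adult, 6 of the 11 rose in each PND8 group and 4 in each repopulating group, and 0 fell. In PND8 Ki67-positive, PND8 Ki67-negative, repopulating Ki67-positive and repopulating Ki67-negative cells, 25.1%, 25.4%, 23.9% and 21.5% of all tested genes were called higher. In that order, 24.3%, 21.4%, 21% and 17.6% were called lower. No test compared the counts with these shares. Mybl1, which encodes A-MYB, led the 11 at 3.60, 3.59, 4.14 and 3.98 in the same order. Lin9, a MuvB subunit, rose by 0.63, 0.43, 0.90 and 0.70.

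Of 13 genes that act upstream of the regulators or on their activity, 3 rose and 2 fell in PND8 Ki67-positive cells, where 2.75% of all tested genes were called higher and 3.15% lower. Cdkn2c, which encodes the CDK4 and CDK6 inhibitor p18, rose by 1.24 (SE 0.170, edgeR adjusted p = 7.0e-04), Ccnf, which encodes cyclin F, by 1.08, and Cdkn1b, which encodes p27, by 0.42. Ccnd3, a D-type cyclin, fell by 0.78 and Cdk2, the partner of cyclins E and A, by 0.70. In repopulation only Cdkn2c passed the test, with 1.19 (SE 0.176, edgeR adjusted p = 0.00191), where 1.87% of all tested genes were called higher and 0.867% lower.

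Between the settings, E2f2 separated repopulation from PND8. Among Ki67-positive cells it was the only regulator called, 1.39 higher in repopulation on the log2 scale (SE 0.160, edgeR adjusted p = 2.1e-05), where 16.7% of all genes were called higher and 14.2% lower. E2f1 was at −0.44 (SE 0.173, edgeR adjusted p = 0.0719) and E2f7 at 0.40 (SE 0.165, edgeR adjusted p = 0.0829), and each passed under some alternatives, such as no filter on low counts (0.00911 and 0.0340). Foxm1 was at −0.09 (SE 0.186, edgeR adjusted p = 0.767), but at −0.46 (edgeR adjusted p = 0.0130) with the header code as a term. Among Ki67-negative cells, 2 regulators were called higher and 1 lower, where 18% and 18.6% of all genes were. E2f1 fell by 0.75 (SE 0.162, edgeR adjusted p = 0.00295), E2f2 rose by 0.79 (SE 0.151, edgeR adjusted p = 0.00126) and Rb1 rose by 0.35 (SE 0.111, edgeR adjusted p = 0.0255). The E2f1 call was lost without repopulating Ki67-negative replicate 1 (−0.54, edgeR adjusted p = 0.0507), and the Rb1 call without that library (0.30, 0.145) or without PND8 Ki67-negative replicate 2 (0.23, 0.139), without which Foxm1 was called (0.54, 0.0374). The Rb1 call was also lost with library sizes only (0.26, edgeR adjusted p = 0.0581), with only the groups compared (0.37, edgeR adjusted p = 0.0517) and with limma on log2(TPM + 1) or log2(TPM + 0.1) (0.30 in both, adjusted p = 0.0797 and 0.0840). Tfdp1, at −0.23 (SE 0.117, edgeR adjusted p = 0.135), passed with the header code as a term (−0.39, 0.00568), with library sizes only (−0.32, 0.0394) and without repopulating Ki67-negative replicate 2 (−0.40, 0.0346). Of the 21 G1/S targets, 13 were lower in repopulating than in PND8 Ki67-negative cells, with a median of −0.51, and 0 were higher. Markers of other cells differ between the settings too. Border macrophage markers were higher in every PND8 library, as were erythroid markers (21.3 to 69.6 CPM at PND8, 0.416 to 1.37 CPM in repopulation, where Hba-a1 and Hba-a2 were at 0 in both groups and Hbb-bs in the Ki67-negative one) and neuronal markers (6.83 to 12.4 against 2.16 to 3.75 CPM). Oligodendrocyte markers, 9 of 9 in the table, were lower in every PND8 library (71.7 to 101 against 108 to 137 CPM, with Olig2 and Sox10 at 0 in both repopulating groups and Mog in the Ki67-positive one). Their part in these results was not tested.

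Genes with the most similar profiles over the 10 libraries were found by the root mean square (RMS) difference of log2 CPM, each profile centred on its own mean. Nearest to Foxm1 were Ncapg (RMS 0.140), Arhgef39 (0.147) and Ccna2 (0.183). E2f1 lay nearest to Exo1 (0.285), Zgrf1 (0.330) and Mcm5 (0.341), and Mybl2 to Pask (0.278), Cdt1 (0.279) and Orc6 (0.309). E2f8 lay nearest to Rad51ap1 (0.180), Esco2 (0.195) and Rad54b (0.213), and Rb1, with the flattest profile, to Trmt13 (0.0529), Fnip1 (0.0600) and Golgb1 (0.0634). Among the regulators themselves, Rbl1 and Tfdp1 were closest (0.120), followed by E2f7 and E2f8 (0.366), while Foxm1 and Mybl2 stood 1.21 apart. These distances are descriptions over libraries that share the adult and sorted groups.

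Promoter marks were read as peaks within 1 kb of the counted start site, in lists that the authors called on each library separately; no test was made on them. H3K4me3 and ATAC-seq peaks were present at all 10 regulators in every list, adult lists included, where 60.7% and 60% (H3K4me3) and 56%, 58.4% and 60.8% (ATAC-seq) of all 20999 start sites had one. H3K27ac was more selective. In the adult lists, 6 and 5 of the 10 regulators had an H3K27ac peak (41.3% and 46% of all start sites). The counts were 8 and 8 in PND8 Ki67-negative (48.6% and 49.6%), 10 and 10 in PND8 Ki67-positive (49.5% and 51.1%), 6 and 8 in cuprizone Ki67-negative (44% and 49.7%), 8 and 10 in cuprizone Ki67-positive (46% and 50.8%), and 10 and 10 in repopulating Ki67-positive lists (50.6% and 47.8%). The map of peaks by list shows which genes make up these counts.

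**Figure D4:**
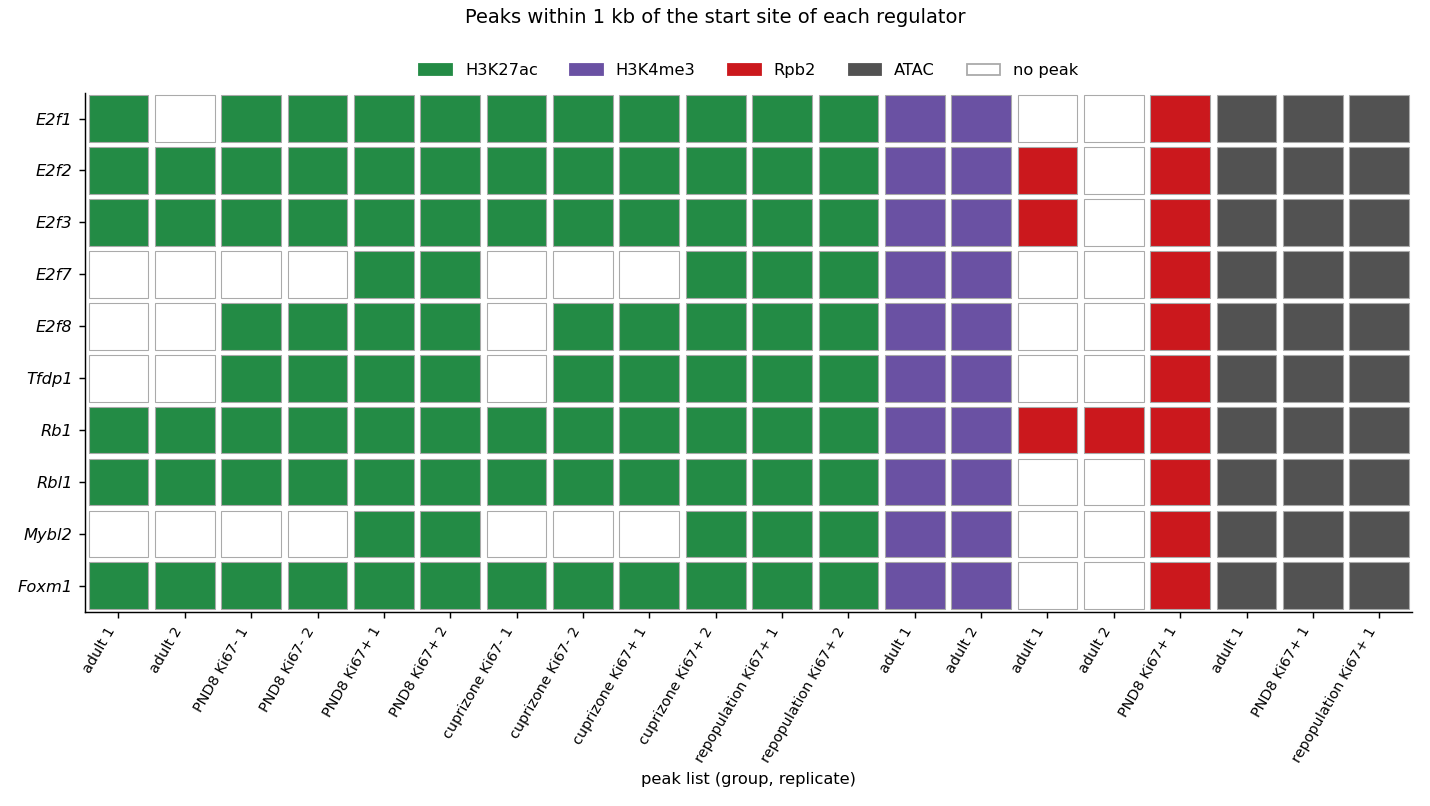
Presence (filled) or absence (open) of a peak within 1 kb of the start site of each regulator (rows) in each of the 20 peak lists (columns), coloured by assay. H3K4me3 and ATAC-seq are filled throughout; H3K27ac at E2f7 and Mybl2 is filled only in lists of Ki67-positive cells, and Rpb2 is filled at all 10 regulators in the PND8 list.

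E2f2, E2f3, Rb1, Rbl1 and Foxm1 had an H3K27ac peak in all 12 lists, as 38.1% of all genes did. E2f8 and Tfdp1 had none in either adult list and in cuprizone Ki67-negative replicate 1, and E2f1 none in adult replicate 2. E2f7 and Mybl2 had a peak in both PND8 Ki67-positive and both repopulating lists and in cuprizone Ki67-positive replicate 2, and in none of the 6 adult and Ki67-negative lists. Leaving the cuprizone Ki67-positive lists aside, 27 of 20999 genes (0.129%) had that pattern, and 118 (0.562%) had a peak in both Ki67-positive and neither Ki67-negative list of PND8. These patterns were chosen after the lists had been seen. At both genes the peak was called at PND8 only in Ki67-positive cells, whereas the RNA difference was −1.39 for Mybl2, which was called, and −0.48 for E2f7, which was not. At E2f2, whose RNA fell at PND8, the signal of the promoter peak was 95.9 and 131 in the Ki67-negative and 284 and 340 in the Ki67-positive lists of PND8 (tags per 10000000). At Tfdp1, whose RNA fell too, it was 28.1 and 60.2 against 66.6 and 104. At E2f1 and E2f3, whose RNA also fell, the lists overlapped (at E2f1, 370 and 355 against 357 and 422). Per the labels, RNA and chromatin came from mice of different genotype. Their Ki67 gates differed too, so the RNA and the peaks are not of the same cells.

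The peaks at E2f7 and Mybl2 stood at the percentiles 10.1 to 43.3 of their own lists by signal. Signals are the authors' tag counts per 10000000 tags. At Mybl2 they were 59.3 and 76.5 in PND8 Ki67-positive, 40.6 in cuprizone Ki67-positive replicate 2 and 78.9 and 82.7 in repopulating Ki67-positive lists. At E2f7 they were 48.5 and 79.0, 20.6, and 46.0 and 46.0 in the same lists. Cuprizone Ki67-positive replicate 1, which had no peak at either gene, was the shallowest H3K27ac library, with 15233543 tags. Repopulating replicate 1, with 16736099 tags, had peaks at both genes. Adult replicate 1, the deepest with 22888521 tags, had none at either. It also had the fewest peaks of the 12 H3K27ac lists (19572) and the lowest share of tags in peaks (32.6%). The part of depth and of this share was not tested. A peak that is not called can hold signal below the caller's threshold, and the lists do not give that signal.

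Where a peak was present in all lists, its extent varied. At Foxm1 the peak reached 78 and 130 bp into the gene in the adult, 280 and 381 bp in PND8 Ki67-negative and 59 and 242 bp in cuprizone Ki67-negative lists. It reached 949 and 833 bp in PND8 Ki67-positive, 578 and 737 bp in cuprizone Ki67-positive and 851 and 1100 bp in repopulating Ki67-positive lists. All 6 Ki67-positive lists thus lay beyond all 6 others, while the upstream edge, between −1103 and −873 bp from the start, overlapped between them. At E2f2, E2f3, Rb1 and Rbl1, which also had a peak in all lists, the edge inside the gene overlapped between Ki67-positive and other lists. In Ki67-positive against other lists it stood at 1520 to 1997 against 137 to 1552 bp at E2f2. At Rbl1 it stood at 814 to 1007 against 214 to 851 bp. At E2f3 it stood at 2561 to 2811 against 2599 to 2964 bp, and at Rb1 at 1217 to 1466 against 1277 to 1477 bp. Separation without overlap was thus seen at Foxm1 only, while E2f2 and Rbl1 overlapped only at the margin. This edge was not measured over all genes. Upstream of Foxm1 lies Rhno1, whose nearest edge is 83 bp from the Foxm1 start site. At E2f1 the peak of adult replicate 1 ended at −200 bp from the start site, and that of cuprizone Ki67-negative replicate 1 at −42 bp, whereas in the other 9 lists with a peak it ran 1290 to 1673 bp into the gene.

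**Figure D5:**
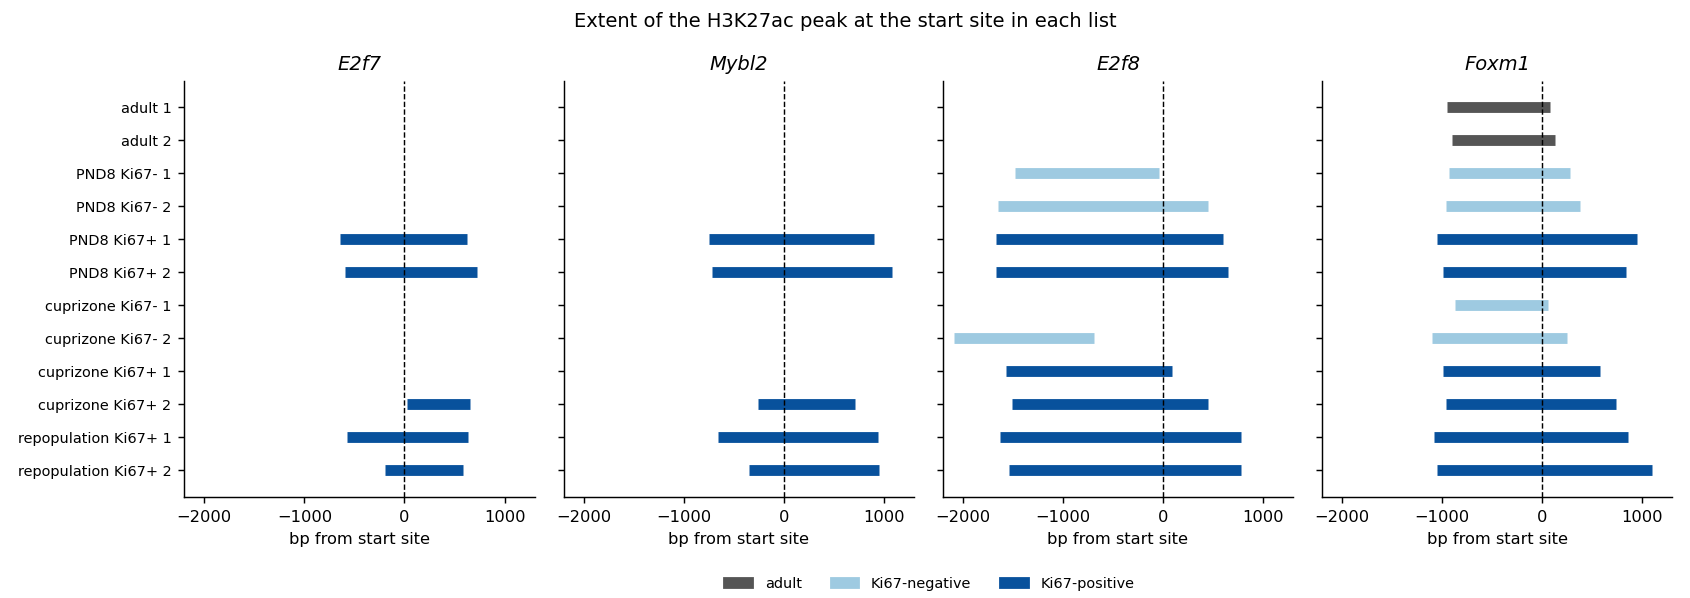
Extent of the H3K27ac peak around the start site (dashed line, transcription to the right) of E2f7, Mybl2, E2f8 and Foxm1 in each of the 12 lists; bars run from the first to the last base of the peak and a missing bar means that no peak was called within 1 kb. The Foxm1 bar ends 59 to 381 bp into the gene in adult and Ki67-negative lists and 578 to 1100 bp in Ki67-positive lists.

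Rpb2 peaks lay within 1 kb of the start in 3 regulators in adult replicate 1 (E2f2, E2f3 and Rb1; 36% of all start sites), in 1 in adult replicate 2 (Rb1; 30.6%) and in all 10 in the PND8 Ki67-positive list (48.4%). The 3 lists differ in size, with 14550, 10544 and 31602 peaks, and the PND8 list is a single library called against an input made for H3K27ac. Beyond 1 kb, within the gene, Rpb2 peaks occurred in 4 regulators, all in each of the 3 lists: E2f2 (1, 1 and 3 peaks in adult replicates 1 and 2 and PND8), E2f3 (3, 2 and 4), Rb1 (3, 1 and 5) and Rbl1 (2, 1 and 3). Of all genes long enough, 13.6%, 9.3% and 27% had such a peak. E2f1, E2f7, E2f8, Tfdp1, Mybl2 and Foxm1 had none there in any list.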

How the data were processed

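RNA-seq counts of 10 libraries and peak lists of 20 libraries were used, and 16 input samples were not used as values of their own. The members and the gene lists were chosen with earlier results of these data known.

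Per the labels' protocols, RNA was polyA-selected and made into stranded libraries. HOMER counted reads over exons for the deposited count table, per the file headers, without adjustment and with at most 3 tags per position; the strand setting is not given in the sources used here. The authors' deposited TPM values summed to 472498.1 to 486778.7 per library over the listed genes. Peaks, their signal and their HOMER score were called per library, per the file headers, on mm10; ATAC-seq headers name no build and were read as mm10. The submitters' processing notes name STAR 2.7.0f, Bowtie2 2.3.4.1, HOMER 4.11 and DESeq2.

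All counts entered 1 quasi-likelihood fit in edgeR 4.0.16 (R 4.3.3) with a term per group, TMM scaling and filterByExpr, which left 12230 of 20999 genes; the common biological coefficient of variation was 0.0957. The 9 comparisons were adjusted by Benjamini-Hochberg over all tested genes, with 0.05 as the threshold for a call. CPM used TMM-scaled library sizes. The code was tested on simulated counts. With 2 libraries per group, p-values measure the spread between these samples. Alternatives were DESeq2 1.42.0 and its size factors, library sizes alone, no filter on low counts, fits of only the groups compared, a replicate block, the header code as a batch term, a fold of at least 2, limma 3.58.1 on log2(TPM + 1) or log2(TPM + 0.1) of the deposited TPM values, and leaving out each library. A numeric code of unknown meaning stands in each header; 4 codes occur among the RNA libraries, and adult comparisons could not be fitted with it.

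A promoter was the start site of the counted transcript with 1 kb each side, and a peak counted with at least 1 bp of overlap. Named genes were all 10 regulators; from the lists, the 2 highest and 2 lowest called genes, with others named after their values were seen. Where another gene overlaps a regulator (Necab3 at the end of E2f1, Tex52 at the end of Foxm1, Lpar6 inside Rb1, and noncoding genes inside E2f7, E2f8 and Rbl1), reads of the 2 genes may be shared. A further erythroid marker is not reported here and is not in the sum of that list.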

Additional observations from a re-analysis of the deposited data

How the results depend on the processing

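No call on a regulator reversed. Of 1760 alternative values of single regulators, 1609 kept direction and side of the threshold, 73 were weaker, 24 stronger, and 54 changed sign while uncalled both ways. Of the 36 calls against the adult, 25 held under all alternatives and the other 11 were lost only when a fold of at least 2 was required, which left 4 of the 9 calls in PND8 Ki67-positive cells. That requirement left 0 of the 6 calls of the PND8 Ki67 comparison, 0 of the 4 in repopulation, and 0 in both comparisons of repopulation with PND8. The Ki67 comparison in repopulation was the least stable: 2 calls with only the groups compared, 1 with limma on log2(TPM + 1) and 0 with log2(TPM + 0.1), where E2f1 had an adjusted p of 0.0572. Leaving out 1 library gave 3 to 6 calls for the Ki67 comparison at PND8, 1 to 4 in repopulation, 1 to 2 for repopulation minus PND8 in Ki67-positive cells and 1 to 4 in Ki67-negative cells. The Ki67-positive comparison of the settings had 1 call and gave 2 with library sizes only and 3 without a filter, with only the groups compared, and when the header code entered the fit. These are counts of regulators only, and the share of all genes called under these settings, the replicate block included, is not given here. They thus do not show whether the regulators or all genes alike gained or lost calls. The cause of these differences was not tested. No scaling moved the median of all genes by over 0.1.

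Replicate numbers are not said to pair samples. Replicate differences of Ki67-negative and Ki67-positive cells correlated across genes at 0.338 (PND8) and 0.263 (repopulation), where genes are not independent replicates, and at −0.01 to 0.10 between other groups. With the replicate number as a block, the Ki67-positive comparison of the settings gave 3 calls instead of 1, with E2f1 at an edgeR adjusted p of 0.0405 and E2f7 at 0.0292, and the PND8 Ki67 comparison gave 7 instead of 6, adding E2f7 at 0.0280.

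Of 100 alternative promoter counts, 64 equalled the original, 26 differed by at most 1.5 times and 10 by more. Keeping the upper 50% of each list by peak score lowered the count in all 12 H3K27ac lists, and gave 3 regulators in adult replicate 1 and PND8 Ki67-negative replicate 2, 5 in PND8 Ki67-positive replicate 1, 4 in cuprizone Ki67-negative replicate 2 and in cuprizone Ki67-positive replicate 1, and 6 in both repopulating lists. Rpb2 gave 1 regulator in adult replicate 1 within 500 bp, and 2 in adult replicate 2 within 2 kb or with the start sites of the TPM table, the last added after the data were seen.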

Other observations

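The gene order around 2 regulators bears on what their values hold. Rhno1 lies 83 bp from the Foxm1 start site, so an H3K27ac peak within 1 kb of that start site also covers the Rhno1 end of the interval. The lncRNA Gm2788 lies 259 bp from the E2f8 start site, and LOC115486422 lies inside E2f8.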
